A study of Mus musculus with 23 samples.

Results

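The genes described here are 40 proliferation and neuroblast genes, 34 of the cell cycle and 6 that mark neuroblasts, the migrating young neurons of the postnatal brain. They were chosen by gene symbol from the table of normalized counts, with a normalized count of 10 or more asked for in at least 5 of the 23 libraries. All 40 named genes met this, out of 16385 genes that did and 27178 in the table. The cell cycle members fall into 19 of mitosis, 10 of DNA replication and 5 of cell cycle entry and chromatin.

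The libraries come from RNA sequencing of the orbitofrontal cortex (OFC) of male wild-type C57BL/6J mice, 8 weeks of age per the labels. Every mouse received an AAV6 vector in the OFC on day 0, in which the promoter of the astrocyte gene GFAP drives either the transcription factor ZBTB7A or GFP. On day 21 mice went through subthreshold social defeat stress or a control condition, behaviour was tested between day 22 and day 27 (social interaction, preference for sucrose, forced swim), and infected tissue was taken on day 28. ZBTB7A stress mice had AAV6-GFAP-ZBTB7A and stress (n = 5 libraries), ZBTB7A control mice the same vector without stress (n = 5), GFP stress mice AAV6-GFAP-GFP and stress (n = 8) and GFP control mice AAV6-GFAP-GFP without stress (n = 5). Surgery, a vector and the behavioural tests are thus shared by all groups. One label lists the stress for all samples, and the groups were taken from the label for stress condition. Libraries are named by group and the number in their title. The labels do not say that each library is a separate mouse, so p-values measure the spread between these samples, which may be technical. Values are normalized counts, reads divided by a size factor of the library, and are not scaled by gene length, so levels are compared between groups and not between genes.

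Dividing cells copy their DNA in S phase with the MCM helicase, the clamp PCNA and enzymes that supply nucleotides, and then build a spindle, driven by cyclin B with CDK1, before the anaphase-promoting complex ends mitosis. Cyclin D and E2F act earlier, at the decision to enter the cycle. In the adult mouse brain most neurons no longer divide, while oligodendrocyte precursors and the neural stem cells that line the ventricles do, and the stem cells give rise to neuroblasts that express DCX and DLX proteins and migrate to the olfactory bulb. In bulk tissue, more cells of a type and more RNA per cell cannot be told apart.

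Many genes of mitosis share promoter elements, the cell cycle homology region (CHR) and CCAAT boxes, and many genes of S phase share E2F sites, so the start of a few members is shown here to let a reader see them. RefSeq (GRCm38.p6) gave a window of 250 bases before the gene start for 32 of the 40 members. The letters searched on both strands were TTTGAA and TTCGAA for the CHR, CCAAT for the CCAAT box, and TTTGGCGC, TTTCCCGC, TTTCGCGC and TTTGCCGC for E2F, and matches on either strand are in capitals, also where 2 matches overlap or touch. Top2a, Ccnb2 and Ube2c are shown for mitosis, Mcm6 for replication and Sox11 for the neuroblast members.
Top2a, chr11:99024190-99024439, minus strand: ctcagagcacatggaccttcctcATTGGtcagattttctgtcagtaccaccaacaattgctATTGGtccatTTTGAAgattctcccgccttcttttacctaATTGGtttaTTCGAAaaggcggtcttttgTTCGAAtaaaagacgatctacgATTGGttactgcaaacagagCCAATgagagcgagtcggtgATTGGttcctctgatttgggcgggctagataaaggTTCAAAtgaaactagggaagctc
Ccnb2, chr9:70421555-70421804, minus strand: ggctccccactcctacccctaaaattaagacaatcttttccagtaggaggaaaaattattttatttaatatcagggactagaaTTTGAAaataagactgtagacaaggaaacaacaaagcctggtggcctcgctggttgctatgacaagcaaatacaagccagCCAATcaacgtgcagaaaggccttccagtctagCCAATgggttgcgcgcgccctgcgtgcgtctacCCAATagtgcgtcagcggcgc
Ube2c, chr2:164769679-164769928, plus strand: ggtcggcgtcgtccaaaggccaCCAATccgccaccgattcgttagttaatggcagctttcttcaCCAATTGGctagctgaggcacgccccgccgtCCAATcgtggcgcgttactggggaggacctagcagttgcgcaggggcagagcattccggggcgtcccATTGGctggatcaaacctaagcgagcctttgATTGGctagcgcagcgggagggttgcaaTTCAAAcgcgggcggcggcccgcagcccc
Mcm6, chr1:128359706-128359955, minus strand: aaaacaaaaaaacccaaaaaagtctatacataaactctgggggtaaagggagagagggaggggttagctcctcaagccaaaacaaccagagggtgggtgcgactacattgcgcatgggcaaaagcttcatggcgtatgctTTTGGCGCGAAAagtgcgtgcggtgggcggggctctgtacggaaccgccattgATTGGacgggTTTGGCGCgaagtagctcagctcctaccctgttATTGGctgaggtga
Sox11, chr12:27342719-27342968, minus strand: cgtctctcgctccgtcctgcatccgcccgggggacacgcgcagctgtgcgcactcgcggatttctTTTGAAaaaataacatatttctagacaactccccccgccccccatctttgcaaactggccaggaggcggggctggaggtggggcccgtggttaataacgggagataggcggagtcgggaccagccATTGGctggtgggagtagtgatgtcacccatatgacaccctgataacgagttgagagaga
A CHR match lay in 9 of the 16 mitosis members with a window (56.2%), against 14.8% of the 12457 tested genes with a window. CCAAT lay in 14 of the 16 (87.5%), against 39.7%, and both together in 56.2%, against 5.603%. E2F letters lay in 3 of 9 replication members (33.3%), Mcm5, Mcm6 and Mcm7, against 3.596% of tested genes, and CCAAT lay in 7 of these 9 (77.8%) and a CHR match in 2. In Mcm6 an E2F match runs into another that reads on the other strand, so these 2 are not separate stretches. Of the 4 neuroblast members with a window, 1 had a CHR match and 3 had CCAAT. A match of letters is not shown to be a site in use.

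Libraries held 12.5 to 51.9 M recovered reads, with a median of 22.7 M. The mouse Zbtb7a gene had 3470 to 3899 normalized counts in ZBTB7A stress, 3357 to 3955 in ZBTB7A control, 3681 to 4330 in GFP stress and 3033 to 4666 in GFP control, so it was not higher under the ZBTB7A vector. Whether transgene reads would be counted under this mouse gene is not given in the sources used here. Cortical excitatory neuron markers such as Slc17a7 summed to 44425 to 127004 and astrocyte markers to 75972 to 114029, with none at 0 in any library. Oligodendrocyte precursors, a dividing cell type of this tissue, had a marker level (mean centred log2 value) of 0.09 ± 0.04 in ZBTB7A stress, 0.02 ± 0.26 in ZBTB7A control, -0.15 ± 0.20 in GFP stress and 0.14 ± 0.19 in GFP control. The cortical excitatory neuron level was -0.24 ± 0.30 in ZBTB7A stress, -0.14 ± 0.64 in ZBTB7A control, 0.27 ± 0.19 in GFP stress and -0.04 ± 0.31 in GFP control, and group means for the endothelium, microglia, astrocyte and cortical interneuron lists lay between -0.14 and 0.12.

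A few libraries stood apart for the members, and they are given before the comparisons. GFP stress 13 was the highest of the 23 libraries for 28 of the 40 members, including 18 of the 19 of mitosis, and ZBTB7A control 23 was among the top 2 for 13. At the other end, GFP stress 20 was among the lowest 3 libraries for 30 members, GFP control 11 for 28 and GFP stress 5 for 27. Such counts were made for the members only, without the share over all genes, and are not read as particular to the members. GFP stress 13, GFP stress 12 and ZBTB7A control 23 also held RNA of blood, bone or connective tissue at levels the other 20 libraries did not reach. Mpo, an enzyme of granulocyte precursors, had 420.5 normalized counts in ZBTB7A control 23, 378 in GFP stress 13 and 147 in GFP stress 12, against at most 10.5 elsewhere. Slc4a1, the anion exchanger of red cells, had 1119, 1322 and 541 in the same order, against at most 20.1 elsewhere. Col1a1, a collagen chain made by bone and connective tissue cells, had 2008 in ZBTB7A control 23 and 15313 in GFP stress 13, against at most 438 elsewhere, GFP stress 12 included. The bone genes Mmp13 and Acp5 had 276 and 566 in GFP stress 13. In ZBTB7A control 23 they had 36.2 and 88.4, close to Mmp13 in ZBTB7A control 14 (33.1) and Acp5 in GFP control 10 (81.3). These genes were chosen after their values were seen. The part of such RNA in the members' values was not tested, and each comparison is given with and without the 3 libraries.

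**Figure D1:**
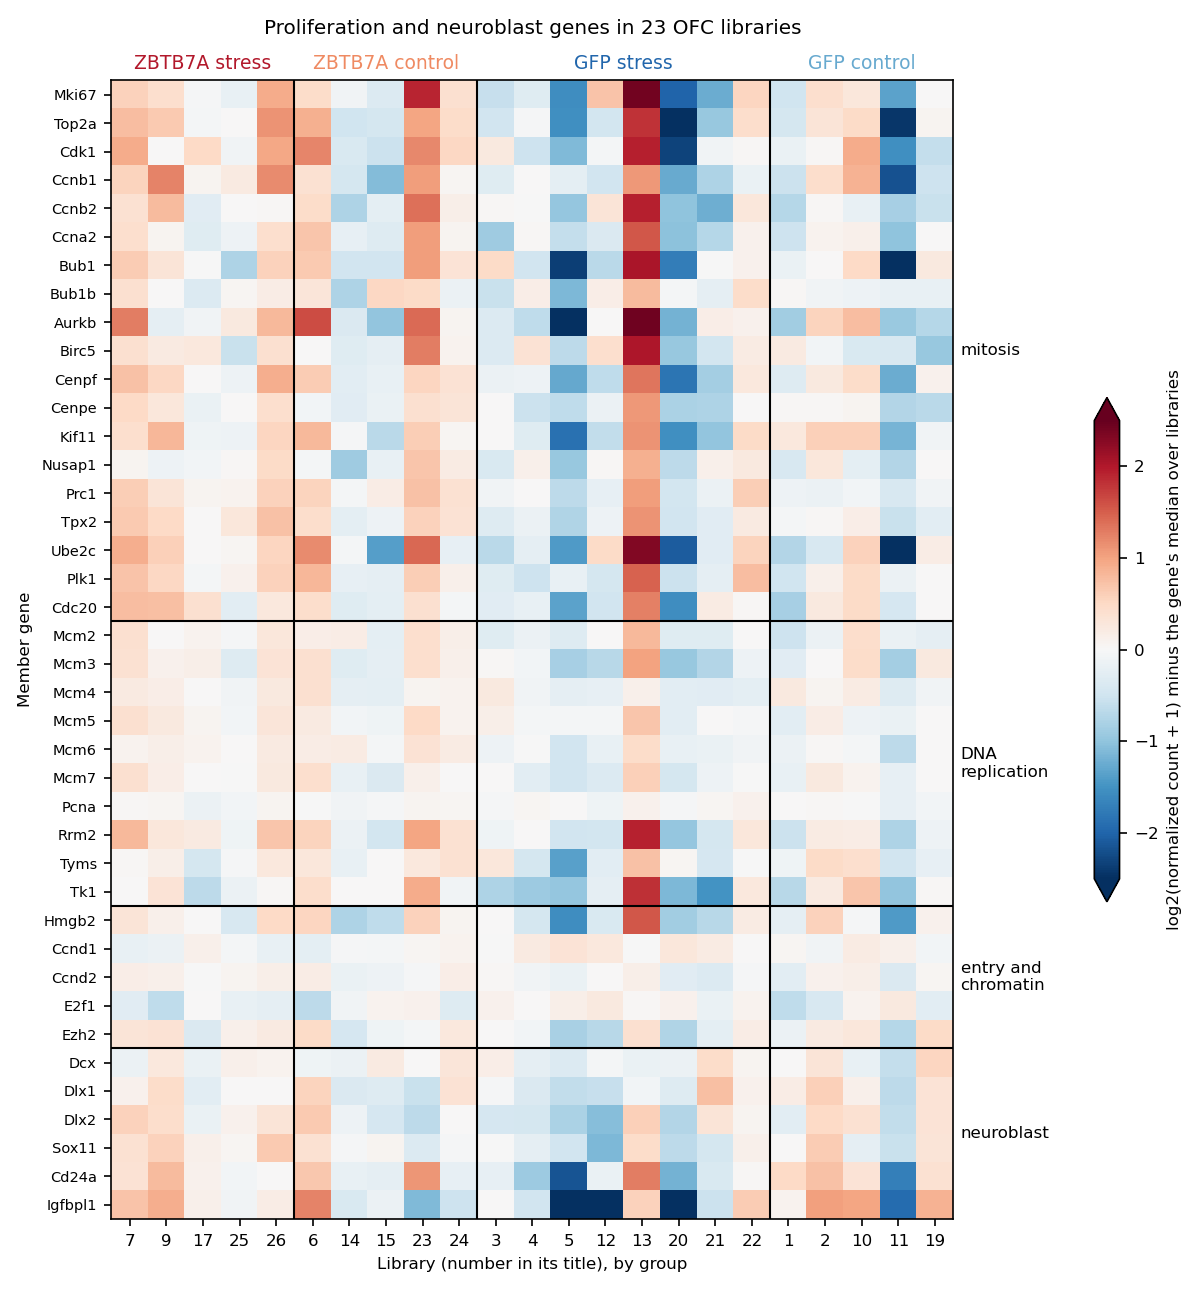
Heat map of the 40 members (rows, by role) in the 23 libraries (columns, by group, with the number in the title), coloured by log2(normalized count + 1) minus the gene's median over libraries. GFP stress 13 is red through most cell cycle rows, while GFP stress 5, GFP stress 20 and GFP control 11 are blue, and Pcna hardly varies.

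The heat map of members shows wide differences between libraries. Over all 23 libraries, the ratio of highest to lowest had a median of 8.32 over the mitosis members, 2.33 over the replication members and 3.37 over the neuroblast members. It ran from 1.24 for Pcna, the sliding clamp that also serves DNA repair, to 72.6 for Bub1, a spindle checkpoint kinase whose lowest library held 1 read. The median SD of the log2 values over all libraries was 0.50 for the members, against 0.19 for all genes tested. Members and all genes were not matched for the size of their counts, so the excess is not read as particular to the members. The SD was 1.08 for Bub1, on low counts, and 0.08 for Pcna.

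Among the mitosis members, Mki67, the Ki-67 protein that coats mitotic chromosomes, had 242, 216, 158, 142 and 307 in ZBTB7A stress, 220.3, 150.5, 127, 607 and 213 in ZBTB7A control, 39.4 to 859 with a median of 119 in GFP stress, and 113, 215, 197, 62.6 and 161 in GFP control. Top2a, the topoisomerase that untangles sister DNA, had 209.5, 191, 118, 122 and 267 in ZBTB7A stress, 227, 85.8, 89.3, 243 and 168 in ZBTB7A control, 19.1 to 426 with a median of 87.7 in GFP stress, and 90.1, 153, 171, 21.6 and 128 in GFP control. For both, the highest library (GFP stress 13) and the lowest (GFP stress 20) were in GFP stress, and the groups overlapped. Ube2c, the ubiquitin-conjugating enzyme of the anaphase-promoting complex, averaged 34.4 ± 9.28 in ZBTB7A stress, 36.2 ± 25.7 in ZBTB7A control, 33.5 ± 39.2 in GFP stress and 20.3 ± 13.1 in GFP control (SD, n = 5, 5, 8 and 5, as for all means below). The SD of GFP stress exceeded its mean for Mki67, Top2a and Ube2c alike.

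The mitotic cyclins and their kinase followed. Cdk1 averaged 29.02 ± 9.96 in ZBTB7A stress, 30.2 ± 16.4 in ZBTB7A control, 23.2 ± 23.3 in GFP stress and 19.1 ± 12.2 in GFP control. Ccnb1, the cyclin that CDK1 binds at the entry to mitosis, averaged 18.2 ± 7.12 in ZBTB7A stress, 11.9 ± 7.04 in ZBTB7A control, 9.64 ± 5.96 in GFP stress and 10.01 ± 7.24 in GFP control, on low counts. Ccnb2 averaged 25.3 ± 7.99 in ZBTB7A stress, 28 ± 17.4 in ZBTB7A control, 26.2 ± 24.7 in GFP stress and 15.7 ± 4.32 in GFP control. Their group means differed by less than the SD within GFP stress, apart from Ccnb1, for which ZBTB7A stress stood above GFP stress by more than either SD. Ccna2, the cyclin of S phase and G2, averaged 75.4 ± 16.9 in ZBTB7A stress, 88.6 ± 37.9 in ZBTB7A control, 70.1 ± 56.5 in GFP stress and 60.1 ± 18.3 in GFP control. Plk1, a kinase of spindle assembly, averaged 57.96 ± 12.7 in ZBTB7A stress, 53.7 ± 18.5 in ZBTB7A control, 50.2 ± 33.2 in GFP stress and 44.6 ± 11.2 in GFP control. Aurkb, the Aurora kinase of the chromosomal passenger complex, averaged 31.3 ± 14.8 in ZBTB7A stress, 35.3 ± 26.3 in ZBTB7A control, 28.8 ± 37.8 in GFP stress and 20.9 ± 12.8 in GFP control. The kinase Aurkb was at 1 read in GFP stress 5 and at 118 in GFP stress 13. Birc5, survivin, its partner in that complex, averaged 31.9 ± 7.64 in ZBTB7A stress, 34.7 ± 19.4 in ZBTB7A control, 36.98 ± 33.3 in GFP stress and 23.1 ± 6.97 in GFP control. Bub1 averaged 15.4 ± 5.53 in ZBTB7A stress, 16.7 ± 8.08 in ZBTB7A control, 15.4 ± 17.4 in GFP stress and 11.8 ± 6.78 in GFP control. Bub1b, the checkpoint protein BubR1, averaged 76.4 ± 14.2 in ZBTB7A stress, 80.6 ± 26.4 in ZBTB7A control, 75.4 ± 29.4 in GFP stress and 67 ± 4.2 in GFP control. Of these, Bub1b had the least spread, with an SD of 4.20 in GFP control.

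The spindle and kinetochore members varied less than Mki67 or Ube2c. Cenpf averaged 72.5 ± 22.01 in ZBTB7A stress, 63.2 ± 17.6 in ZBTB7A control, 48.7 ± 38.2 in GFP stress and 50.7 ± 19.6 in GFP control. Cenpe, a kinetochore motor, averaged 67.2 ± 12.9 in ZBTB7A stress, 59.6 ± 12.8 in ZBTB7A control, 53.6 ± 29.6 in GFP stress and 49.2 ± 13.3 in GFP control. Kif11, the motor that pushes spindle poles apart, averaged 92.6 ± 26.6 in ZBTB7A stress, 85.7 ± 33.3 in ZBTB7A control, 64.3 ± 46.2 in GFP stress and 80.8 ± 32.5 in GFP control. Each was highest in GFP stress 13, and the 4 groups overlapped in every one. Nusap1, a microtubule-bundling protein, averaged 54.1 ± 9.77 in ZBTB7A stress, 52.4 ± 20.3 in ZBTB7A control, 51.8 ± 21.4 in GFP stress and 44.8 ± 12.2 in GFP control. Prc1, which bundles the central spindle, averaged 98.04 ± 17.9 in ZBTB7A stress, 100.5 ± 21.04 in ZBTB7A control, 83.1 ± 36.9 in GFP stress and 68.5 ± 6.09 in GFP control. Tpx2, which activates Aurora A on the spindle, averaged 101 ± 19.8 in ZBTB7A stress, 86.7 ± 21.2 in ZBTB7A control, 74.5 ± 37.2 in GFP stress and 67.8 ± 12.9 in GFP control. Prc1 and Tpx2 had means near 100 in ZBTB7A stress, and lower means in both GFP groups. Cdc20, the activator of the anaphase-promoting complex, averaged 55.4 ± 15.1 in ZBTB7A stress, 43.5 ± 11 in ZBTB7A control, 39.6 ± 27.1 in GFP stress and 39.9 ± 13.9 in GFP control.

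The replication members were steadier, the MCM helicase subunits among them. Mcm2 averaged 169 ± 21.97 in ZBTB7A stress, 168 ± 26.1 in ZBTB7A control, 149 ± 48.4 in GFP stress and 142 ± 37.3 in GFP control. Mcm3 averaged 129 ± 22.95 in ZBTB7A stress, 125 ± 28.7 in ZBTB7A control, 103 ± 56.9 in GFP stress and 114 ± 36.9 in GFP control. Mcm4 averaged 309.8 ± 30.5 in ZBTB7A stress, 294 ± 56.5 in ZBTB7A control, 265 ± 39.3 in GFP stress and 293 ± 45.6 in GFP control. These 3 subunits had lower means in GFP stress than in ZBTB7A stress, by less than the SD of GFP stress for Mcm2 and Mcm3. Mcm5 averaged 224 ± 28.7 in ZBTB7A stress, 215 ± 38.5 in ZBTB7A control, 205 ± 46.7 in GFP stress and 186 ± 23.7 in GFP control. Mcm6 averaged 235 ± 13.7 in ZBTB7A stress, 247 ± 24.8 in ZBTB7A control, 206 ± 40.8 in GFP stress and 196 ± 33.98 in GFP control. Mcm7 averaged 358 ± 44.2 in ZBTB7A stress, 323 ± 67.9 in ZBTB7A control, 297 ± 81.4 in GFP stress and 317 ± 43.1 in GFP control. Again the ZBTB7A stress means were the higher ones, against GFP stress. Pcna averaged 601 ± 37.1 in ZBTB7A stress, 608 ± 26.7 in ZBTB7A control, 616 ± 30.2 in GFP stress and 586 ± 35.97 in GFP control. Rrm2, the small subunit of ribonucleotide reductase, averaged 105 ± 26.7 in ZBTB7A stress, 100.1 ± 38.8 in ZBTB7A control, 94.2 ± 84.5 in GFP stress and 70.2 ± 20.4 in GFP control. Tyms, which makes thymidylate, averaged 33.1 ± 5.89 in ZBTB7A stress, 36.9 ± 6.0 in ZBTB7A control, 31.1 ± 12.8 in GFP stress and 34.3 ± 10.1 in GFP control. Pcna was close in all groups, while the SD of Rrm2 in GFP stress was nearly as large as its mean. Tk1, thymidine kinase, averaged 17.3 ± 4.36 in ZBTB7A stress, 22.4 ± 7.68 in ZBTB7A control, 18.01 ± 20.2 in GFP stress and 17.6 ± 8.36 in GFP control, on low counts.

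Of the members of cell cycle entry and chromatin, Ccnd1, cyclin D1, averaged 1137 ± 109 in ZBTB7A stress, 1177 ± 106 in ZBTB7A control, 1351 ± 133 in GFP stress and 1247 ± 113 in GFP control. Ccnd2, cyclin D2, averaged 2368 ± 115 in ZBTB7A stress, 2216 ± 249 in ZBTB7A control, 2080.1 ± 231 in GFP stress and 2127 ± 333 in GFP control. E2f1, a transcription factor that switches on S phase genes, averaged 477 ± 73.3 in ZBTB7A stress, 512 ± 104 in ZBTB7A control, 599 ± 50.4 in GFP stress and 508 ± 126 in GFP control. Ccnd1 and E2f1 were highest in GFP stress and lowest in ZBTB7A stress. Hmgb2, a chromatin protein abundant in dividing cells, averaged 74.9 ± 16.8 in ZBTB7A stress, 71.2 ± 29.97 in ZBTB7A control, 68.9 ± 56.2 in GFP stress and 65.03 ± 28.1 in GFP control. Ezh2, the methyltransferase of Polycomb complex PRC2, averaged 148 ± 27.3 in ZBTB7A stress, 139 ± 33.5 in ZBTB7A control, 116 ± 36.8 in GFP stress and 140.3 ± 41.1 in GFP control.

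Among the neuroblast members, Sox11, a transcription factor of young neurons, had 615, 710.2, 516, 494 and 746 in ZBTB7A stress, 615, 465, 496, 374 and 464 in ZBTB7A control, 217 to 657 with a median of 379 in GFP stress, and 475, 736, 406, 322 and 597 in GFP control. Igfbpl1, a secreted protein that marks young neurons, had 277, 315, 183, 158 and 192 in ZBTB7A stress, 395, 129, 152, 77.3 and 117 in ZBTB7A control, 17.8 to 262 with a median of 118 in GFP stress, and 178, 342, 333, 43.3 and 308 in GFP control. Both were lowest in GFP stress 12, and both overlapped between all groups. Dlx1, a homeobox factor of interneurons and their precursors, averaged 585 ± 111 in ZBTB7A stress, 552 ± 192 in ZBTB7A control, 523 ± 182 in GFP stress and 623 ± 176 in GFP control. Dlx2, its neighbour and partner, averaged 411 ± 79.6 in ZBTB7A stress, 331 ± 123 in ZBTB7A control, 294 ± 124 in GFP stress and 371 ± 112 in GFP control. Dcx, doublecortin, a microtubule protein of migrating neurons, averaged 1359.97 ± 177 in ZBTB7A stress, 1384 ± 192 in ZBTB7A control, 1315 ± 248 in GFP stress and 1392 ± 415 in GFP control. Dcx means differed between groups by less than the SD within any group. Cd24a, a surface protein of immature neurons that blood cells also carry, averaged 230.3 ± 61.4 in ZBTB7A stress, 241 ± 111 in ZBTB7A control, 170.3 ± 129 in GFP stress and 227 ± 99.7 in GFP control.

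**Figure D2:**
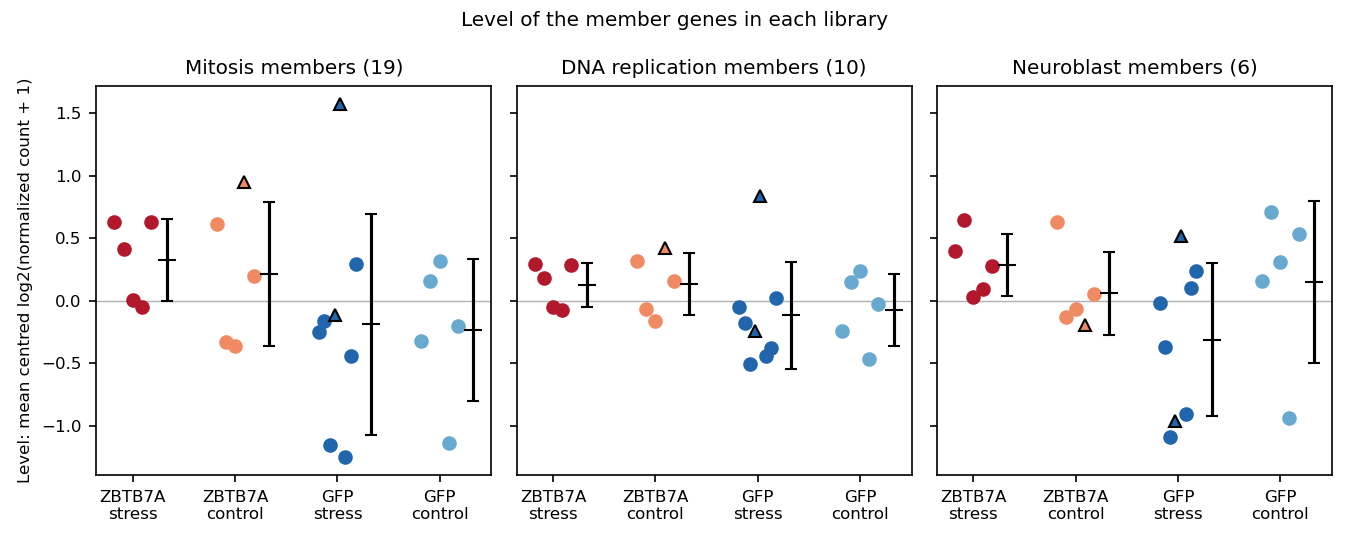
Level of the mitosis, DNA replication and neuroblast members in each library (points), by group, as the mean of the members' log2(normalized count + 1) after centring each gene, with the mean and SD of each group in black; triangles mark GFP stress 12, GFP stress 13 and ZBTB7A control 23. The mitosis level is 1.57 in GFP stress 13 and at or below -1.14 in GFP stress 5, GFP stress 20 and GFP control 11, so the groups overlap in all 3 panels.

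In the plot of levels by group, the mean centred log2 level of the mitosis members was 0.33 ± 0.33 in ZBTB7A stress, 0.21 ± 0.58 in ZBTB7A control, -0.19 ± 0.88 in GFP stress and -0.24 ± 0.57 in GFP control. That of the neuroblast members was 0.29 ± 0.25, 0.06 ± 0.33, -0.31 ± 0.61 and 0.15 ± 0.65 in the same order. GFP stress 12 had a mitosis level of -0.12 and a neuroblast level of -0.96.

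The vector was first compared within stressed mice, ZBTB7A stress against GFP stress. Of the 40 members 37 had a higher mean log2 value in ZBTB7A stress, with a median log2 fold change of 0.37, while over all genes tested 51.4% were higher and the median was 0.01. All 19 mitosis members (median 0.52) and all 6 neuroblast members (median 0.61) were on the higher side, and Ccnd1, E2f1 and Pcna on the lower. No member passed the test, a limma fit to all 16385 genes with a Benjamini-Hochberg adjusted p under 0.05, which called 0% of genes. At an unadjusted p under 0.05 there were 9 members, against 16.1% of all genes. Of these 7 were higher, Ccnb1, Cenpf, Tpx2, Ccnd2, Dlx2, Sox11 and Igfbpl1 (9.13% of all genes), and 2 lower, Ccnd1 and E2f1 (6.95% of all genes). The smallest adjusted p of a member was 0.183, and neither edgeR nor DESeq2 called a member on recovered reads.

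Ccnd1 had 1056, 1088, 1317, 1164 and 1061 in ZBTB7A stress, against 1194 to 1529 with a median of 1394 in GFP stress. Only ZBTB7A stress 17, at 1317, reached into the range of GFP stress. Its log2 fold change was -0.25 ± 0.08 (SE), with an adjusted p of 0.183 in limma and an exact two-sided permutation p of 0.0117. E2f1 had 465.6, 367, 571, 499 and 484 in ZBTB7A stress, against 504 to 676 with a median of 609 in GFP stress. Here too only ZBTB7A stress 17 overlapped GFP stress, and the log2 fold change was -0.34 ± 0.14, with an adjusted p of 0.2601 in limma and an exact permutation p of 0.00233. Tpx2 had 116, 104, 73.5, 89.8 and 122 in ZBTB7A stress, against 43.4 to 161 with a median of 63.1 in GFP stress. The high end of GFP stress was GFP stress 13, and the log2 fold change was 0.52 ± 0.23 (limma adjusted p 0.281, exact permutation p 0.0855). For Sox11, whose values are given above, it was 0.65 ± 0.22 (limma adjusted p 0.205, exact permutation p 0.0233). For Igfbpl1 it was 1.41 ± 0.64 (limma adjusted p 0.288, exact permutation p 0.0684), with GFP stress 5, 12 and 20 at 17.8 to 27.8 and every other library of both groups above 100. Within the 3 runs of title numbers (1 to 9, 10 to 17 and 19 to 26), which the labels do not call batches, the mitosis level of ZBTB7A stress minus GFP stress was 1.05, -0.72 and 0.76, and that of the neuroblast members 1.01, 0.25 and 0.37. The second run holds GFP stress 12 and 13 and 1 ZBTB7A stress library. Leaving out 1 library at a time, the members at an unadjusted p under 0.05 numbered between 2 (without ZBTB7A stress 9, against 8.9% of all genes) and 28 (without GFP stress 13, against 22.5% of all genes).

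**Figure D3:**
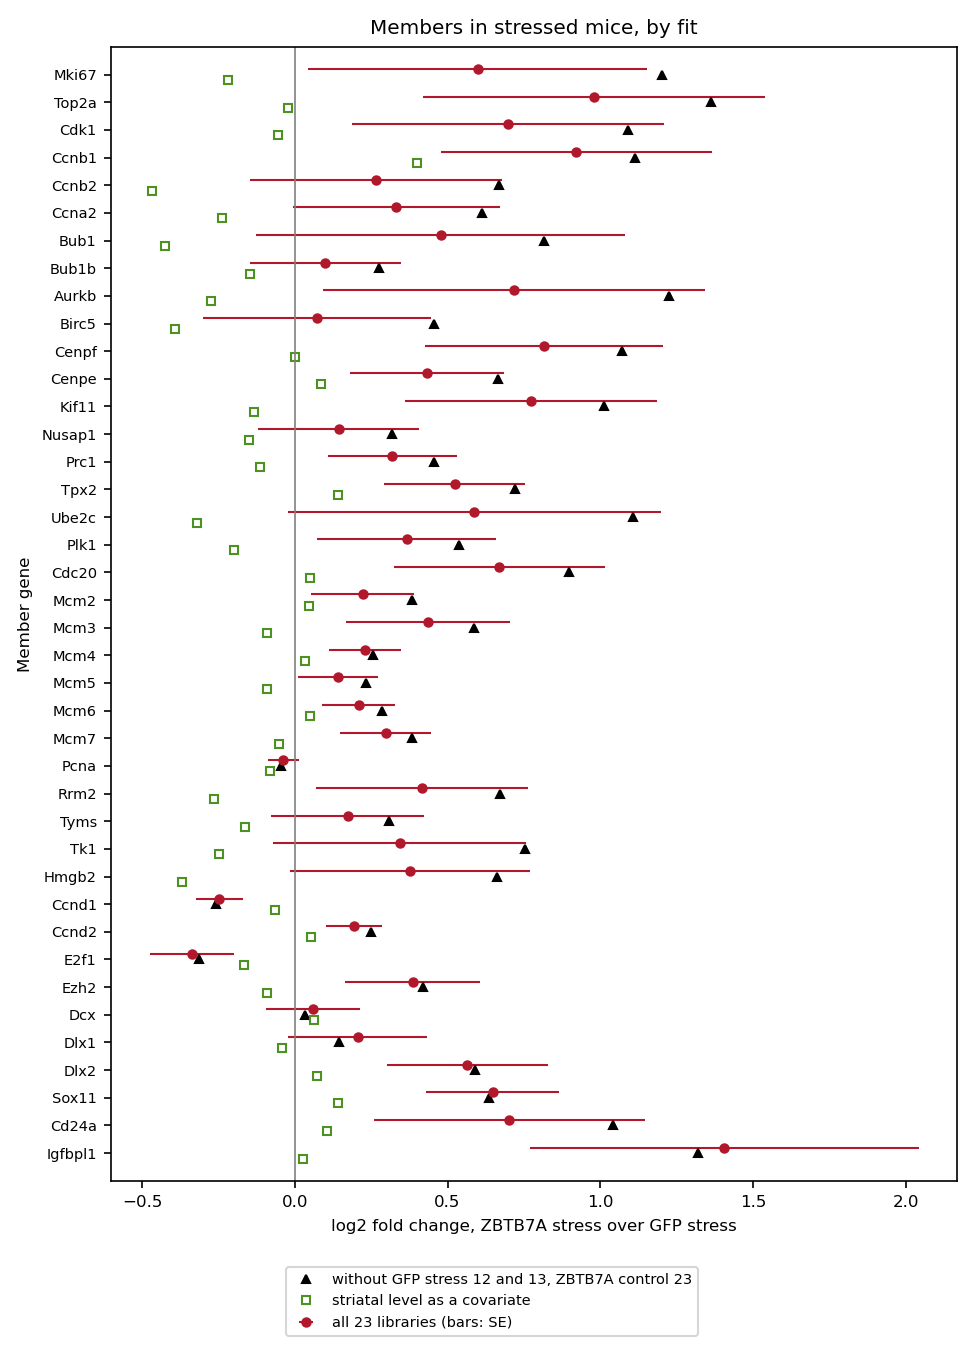
log2 fold change of each member, ZBTB7A stress over GFP stress, in the fit to all 23 libraries (red circles with SE), without GFP stress 12, GFP stress 13 and ZBTB7A control 23 (black triangles) and with the striatal neuron level as a covariate (green open squares). Most mitosis members move right without the 3 libraries and to the left, near or below 0, with the covariate.

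Mean counts and mean logs gave different directions for some members. For 5 of them the log2 fold change was positive while the mean count was lower in ZBTB7A stress, as for Mki67, an example chosen after its values were seen, with a mean of 213 in ZBTB7A stress and 219.7 in GFP stress and a log2 fold change of 0.60 ± 0.55. The other 4 were Ccnb2, Bub1, Birc5 and Tk1, and all 5 were highest in GFP stress 13. Without GFP stress 12, GFP stress 13 and ZBTB7A control 23 the Mki67 mean of GFP stress was 106 ± 71.8 (n = 6), and the log2 fold change was 1.20. In that fit the median over the members was 0.60, with the same split of 37 higher, and 28 members had an unadjusted p under 0.05, against 17.7% of all genes. Of these 26 were higher, against 10.2% of all genes, and 51.4% of all genes had a log2 fold change above 0. No member passed the adjusted threshold there either, the smallest adjusted p being 0.143. These 3 libraries were chosen for removal after their values were seen.

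In this comparison the markers of a neighbouring region also differed between the groups, without a test of association with the members. The level of 13 striatal neuron markers, such as Drd1 and Drd2, none of them at 0 in a library, was 0.90 ± 0.59 in ZBTB7A stress and -0.89 ± 1.32 in GFP stress. Their summed counts ran from 52130 to 134091 in ZBTB7A stress and from 12975 to 78151 in GFP stress. In the same comparison all 7 cortical excitatory neuron markers were lower in ZBTB7A stress, with a median log2 fold change of -0.47, and all 8 oligodendrocyte markers were higher, with a median of 0.65. With the striatal level as a covariate 14 of 40 members were higher in ZBTB7A stress, the median log2 fold change was -0.09, and no member had an unadjusted p under 0.05. The median was -0.15 for mitosis members and 0.07 for neuroblast members. With the covariate and without the 3 libraries 34 members were higher, with a median of 0.15 and again none at an unadjusted p under 0.05. The share of all genes on the higher side is not given for any covariate fit, here or below. Nor is the share at an unadjusted p under 0.05 with the striatal level. The striatal level also differed between the groups, and such counts are not read as particular to the members. For Sox11 the log2 fold change was 0.14 and for Igfbpl1 0.03 with the covariate. Choroid plexus and ependyma markers had a level of 0.13 ± 0.65 in ZBTB7A stress and -0.85 ± 0.67 in GFP stress. Of the 13 tested, 11 were higher in ZBTB7A stress and 2 lower, with a median log2 fold change of 1.02. With the choroid plexus and ependyma level as a covariate 31 members were higher and their median was 0.14. The part of striatal or ventricular tissue in these differences was not tested.

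**Figure D4:**
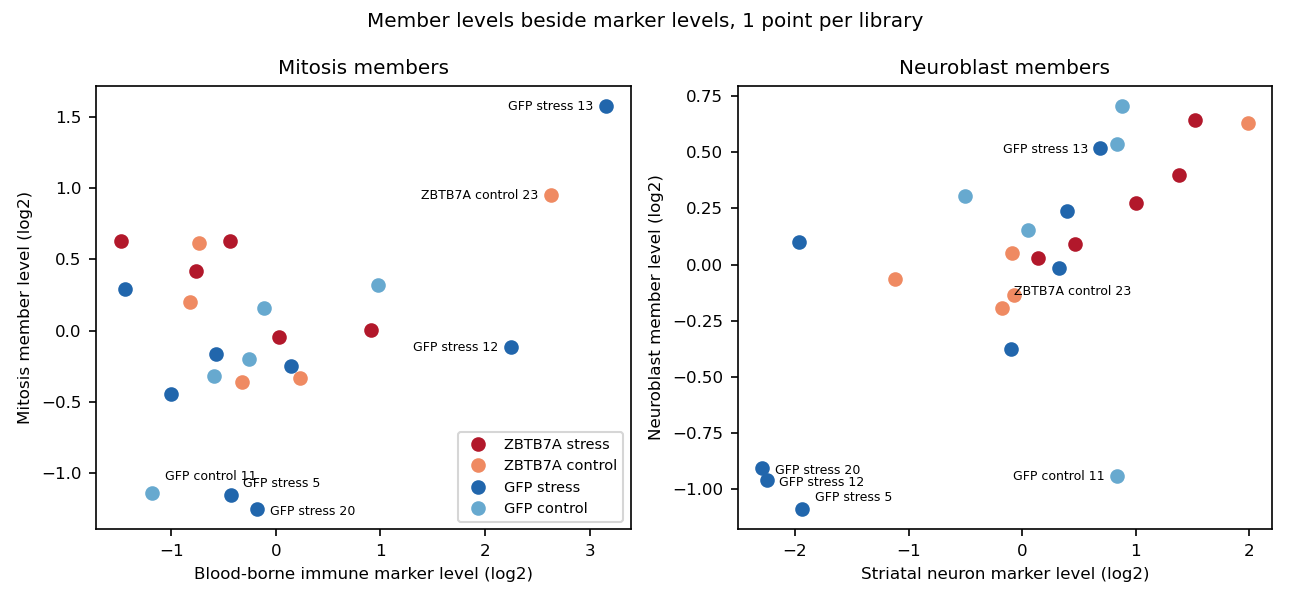
Left, mitosis member level against the level of blood-borne immune markers; right, neuroblast member level against the level of striatal neuron markers, 1 point per library, coloured by group, all as mean centred log2 values. GFP stress 13 and ZBTB7A control 23 lie at the top right of the left panel and GFP stress 12 does not; GFP stress 5, 12 and 20 lie at the bottom left of the right panel, and GFP control 11 is low with a striatal level of 0.84.

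The scatter places member levels beside marker levels for each library, without a test of association. The blood-borne immune marker level was 2.63 in ZBTB7A control 23, 3.16 in GFP stress 13 and 2.25 in GFP stress 12, where the mitosis level was 0.95, 1.57 and -0.12. Of this list of 7, only 5 were tested, and Cd3e and Cd3g of T cells were at 0 in some library. Its summed counts were 192 to 515 in ZBTB7A stress, 226 to 2157 in ZBTB7A control, 140.4 to 3319 in GFP stress and 157 to 548 in GFP control. GFP stress 5 and GFP stress 20, the lowest 2 in mitosis level at -1.16 and -1.25, had striatal levels of -1.93 and -2.29, while GFP control 11, at -1.14, had a striatal level of 0.84. GFP stress 21 had a striatal level of -1.96 and an olfactory bulb level of 2.94, with the highest Dlx1 value of all, 926. Olfactory bulb markers summed to 6615 in GFP stress 21, and were also high in ZBTB7A stress 25 at 2676, ZBTB7A control 24 at 3191 and GFP stress 20 at 2862, where Dlx1 was 551, 705 and 440.4; the other libraries had at most 1147. Of the 10 olfactory bulb markers Barhl2 and Tbx21 were at 0 in some library. With the olfactory bulb level as a covariate the vector difference under stress had a median of 0.33 over the members, and 37 were again higher.

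Without stress, ZBTB7A control was compared with GFP control. Here 34 of 40 members were on the higher side in ZBTB7A control, against 44.7% of all genes, and the median log2 fold change was 0.20. All 19 mitosis members were among them, with a median of 0.48, and 2 of the 6 neuroblast members, whose median was -0.10. No member passed the limma threshold, nor that of edgeR or DESeq2, and 0% of all genes did in limma. At an unadjusted p under 0.05 there were 2 members, Prc1 and Mcm6, against 1.73% of all genes, and both were higher in ZBTB7A control, against 0.738%.

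Prc1 had 114, 73.7, 87.8, 127 and 99.8 in ZBTB7A control, against 69.9, 69.4, 73.3, 57.99 and 71.96 in GFP control. The groups did not overlap, which held for 0.116% of all genes in this direction, although the lowest value of ZBTB7A control was within 1 normalized count of the highest of GFP control. The log2 fold change was 0.53 ± 0.24, with an adjusted p of 0.9999 in limma and an exact permutation p of 0.00794, the smallest that 5 against 5 allow. Mcm6 had 247, 249.8, 209.9, 279.8 and 249 in ZBTB7A control, against 195, 222, 209, 138 and 217 in GFP control. GFP control 11 was the low value, and ZBTB7A control 15 overlapped GFP control, with a log2 fold change of 0.34 ± 0.13 (limma adjusted p 0.9999, exact permutation p 0.0238). Ccnb2 had 29.7, 12.04, 17.9, 56.7 and 23.6 in ZBTB7A control, against 12.6, 21.8, 18.7, 11.6 and 14.1 in GFP control. Its log2 fold change was 0.64 ± 0.46 in all libraries and 0.35 without the 3 libraries, of which ZBTB7A control 23 is in this comparison. Dlx1 and Dlx2 had log2 fold changes of -0.19 ± 0.25 and -0.18 ± 0.29, with limma adjusted p-values of 0.9999. Without the 3 libraries 30 members were higher, against 43.9% of all genes, the median was 0.11 and 2 had an unadjusted p under 0.05, against 1.61%. Leaving out GFP control 11 alone gave a median of 0.09 and leaving out ZBTB7A control 14 one of 0.34. Within the 3 runs of title numbers the mitosis level differed by 0.70, 0.06 and 0.77 and the neuroblast level by 0.20, 0.22 and -0.61. Choroid plexus and ependyma markers, such as Ttr and Foxj1, were lower in ZBTB7A control, with a level of -0.03 ± 1.05 against 1.27 ± 1.19 in GFP control. With that level as a covariate 38 members were higher, the median was 0.56 and 8 had an unadjusted p under 0.05, against 6.79% of all genes in that fit. Of its 14 markers 13 were tested, Kcne2, Otx2 and Tmem212 were at 0 in some library, and the sums were 600.0 to 2913 in ZBTB7A control and 1205 to 10469 in GFP control. All 13 striatal markers were lower in ZBTB7A control as well, with a median log2 fold change of -0.32. The 8 oligodendrocyte markers were all lower too, with a median of -0.29. Of the 12 oligodendrocyte precursor markers 11 were lower, while all 9 microglia markers were higher. The part of ventricular, striatal or white matter tissue in these values was not tested.

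Stress was compared first under GFP, GFP stress against GFP control. The members split evenly, 20 higher and 20 lower, with a median log2 fold change of -0.01, against 48.4% higher over all genes. None had an unadjusted p under 0.05, against 11.2% of all genes, and none passed in limma, edgeR or DESeq2. All 6 neuroblast members were on the lower side, with a median of -0.35. Igfbpl1 had a log2 fold change of -1.24 ± 0.64 (limma adjusted p 0.462, exact permutation p 0.172), on means of 123 in GFP stress and 241 in GFP control. Sox11 had -0.33 ± 0.22 (limma adjusted p 0.572, exact permutation p 0.259). E2f1 averaged 599 in GFP stress and 508 in GFP control, a log2 fold change of 0.27 ± 0.14 (limma adjusted p 0.4603, exact permutation p 0.07304). Those of Ccnd1 and Pcna were 0.11 ± 0.08 and 0.07 ± 0.05. The even split rested on few libraries. Without the 3 libraries 6 members were higher, against 48.1% of all genes, the median was -0.19, and Tk1 and Cd24a, both lower, had an unadjusted p under 0.05, against 12.8%. Without GFP control 11 the median was -0.22, 11 members were higher and 5 had an unadjusted p under 0.05, against 18.5%, and without GFP control 10 it was 0.10. Choroid plexus and ependyma markers were lower in GFP stress, with a level of -0.85 ± 0.67 against 1.27 ± 1.19 in GFP control, 12 of the 13 tested markers on the lower side and a median log2 fold change of -2.45. With that level as a covariate 38 members were higher, the median was 0.44 and 5 had an unadjusted p under 0.05, against 6.43% of all genes. All 6 neuroblast members then lay on the higher side, with Igfbpl1 at 0.56 and Sox11 at 0.072. All 8 oligodendrocyte markers were lower in GFP stress, with a median of -0.73. The part of these tissues in the values was not tested. The striatal level was lower in GFP stress, -0.89 ± 1.32 against 0.42 ± 0.62 in GFP control, and with it as a covariate 34 members were higher, with a median of 0.26. The mitosis level of GFP stress minus GFP control was -0.44, 1.14 and -0.27 within the 3 runs, and that of the neuroblast members -0.92, 0.10 and -0.73.

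Under the ZBTB7A vector, ZBTB7A stress was compared with ZBTB7A control. Of the members 26 were higher, with a median log2 fold change of 0.08, against 52.5% of all genes. None had an unadjusted p under 0.05, against 1.66% of all genes, and none passed in limma, edgeR or DESeq2. Ccnb1 had 16.04, 26.4, 11.02, 12.4 and 25.02 in ZBTB7A stress, against 13.99, 7.52, 4.47, 22.8 and 10.96 in ZBTB7A control, which overlap. The log2 fold change was 0.66 ± 0.49 (limma adjusted p 0.9997, exact permutation p 0.159). Those of Ccnd2 and Mcm7 were 0.10 ± 0.10 and 0.16 ± 0.17. For Sox11 it was 0.35 ± 0.24 (limma adjusted p 0.9997, exact permutation p 0.0635) and for Dlx2 0.36 ± 0.29. Without ZBTB7A control 23 alone 34 members were on the higher side and the median was 0.22, the fit without all 3 libraries giving the same split with none at an unadjusted p under 0.05, against 1.36% of all genes and 52.8% higher. Without ZBTB7A control 14 the median was -0.02. All 13 striatal markers were on the higher side in ZBTB7A stress, with a level of 0.90 ± 0.59 against 0.10 ± 1.14 in ZBTB7A control and a median log2 fold change of 0.82, as were all 8 oligodendrocyte markers, with a median of 0.22. With the striatal level as a covariate 11 members were higher and the median was -0.12. Within the 3 runs the mitosis level differed by -0.09, 0.35 and -0.29 and the neuroblast level by -0.11, 0.13 and 0.25. The part of striatal or white matter tissue in these values was not tested.

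The difference between the stress effects under ZBTB7A and under GFP was tested as an interaction. It was positive for 23 members, with a median of 0.08, against 52.4% of all genes, and for all 6 neuroblast members, with a median of 0.60. Only Sox11 had an unadjusted p under 0.05, with an interaction of 0.68 ± 0.33 and a limma adjusted p of 0.668, while 7.42% of all genes had one. Neither limma, edgeR nor DESeq2 called a member. Without the 3 libraries the median was 0.39 with 35 members positive, against 53.3% of all genes, and 1 had an unadjusted p under 0.05, against 5.24%. Without GFP control 11 alone and without GFP stress 13 alone 4 members each had an unadjusted p under 0.05, against 12.8% and 10.6% of all genes. Striatal markers had a median interaction of 1.98, with 13 of 13 positive, and choroid plexus and ependyma markers one of 2.002, with 12 of 13 positive. With the striatal level as a covariate, in all 23 libraries, the member median was -0.34 with 7 positive, and the neuroblast median was 0.09. With the choroid plexus and ependyma level as a covariate the member median was -0.35 with 3 positive, and the neuroblast median was -0.12. The part of these tissues in the interaction was not tested. The share of all genes above 0 in these covariate fits is not given, so the counts are not read as particular to the members.

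Other genes of the same processes were read from lists that hold no member. Of 27 further mitosis genes, 22 were higher in ZBTB7A stress than in GFP stress, with a median log2 fold change of 0.20, and none passed. Cdc25c, the phosphatase that activates CDK1, had the smallest p, with 21.9 ± 9.68 in ZBTB7A stress and 8.78 ± 6.19 in GFP stress (log2 fold change 1.49 ± 0.51, limma adjusted p 0.206). Of 18 further replication genes 12 were higher, with a median of 0.05, the smallest p being that of Fen1, the flap endonuclease, at -0.15 ± 0.06 (adjusted p 0.251). The 10 further drivers of G1 split into 5 higher and 5 lower, and Cdk4, the partner of cyclin D, had a log2 fold change of 0.22 ± 0.09 (adjusted p 0.264). Among 12 tested inhibitors of the cycle 7 were higher, and Btg1 had 0.32 ± 0.14 (adjusted p 0.276). Of 16 further neuroblast genes 12 were higher, with a median of 0.19, and St8sia2, an enzyme that adds polysialic acid to NCAM, had 345 ± 61.3 in ZBTB7A stress and 212 ± 74.4 in GFP stress (0.76 ± 0.26, adjusted p 0.206). All 12 neural stem and progenitor genes were higher, with a median of 0.26, and Egfr had 0.27 ± 0.09 (adjusted p 0.213). With the striatal level as a covariate 10 of the 27 mitosis genes, 8 of the 16 neuroblast genes and 8 of the 12 progenitor genes were higher.

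In the other comparisons none of these 6 lists had a gene past the threshold. Between ZBTB7A control and GFP control 22 of the 27 mitosis genes and 2 of the 16 neuroblast genes were higher. The smallest p there was that of Btg2, an antiproliferative gene of the inhibitor list, with 670 ± 188 in ZBTB7A control and 448 ± 178 in GFP control (log2 fold change 0.62 ± 0.21, limma adjusted p 0.9999). Btg2 also had 623 ± 109 in GFP stress, against the same GFP control libraries, a log2 fold change of 0.53 ± 0.19 (adjusted p 0.345). These comparisons share GFP control. Anln, anillin, a mitosis gene that oligodendrocytes also express, had 566 ± 309 in GFP stress and 1010.3 ± 402 in GFP control (log2 fold change -0.95 ± 0.36, adjusted p 0.383). The oligodendrocyte marker level, on 8 genes such as Mbp and Mog with none at 0, was -0.39 ± 0.71 in GFP stress and 0.33 ± 0.62 in GFP control, and its part in the Anln value was not tested.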

How the data were processed

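Bulk RNA from infected OFC tissue was sequenced in 23 libraries (Trizol and RNeasy Micro, TruSeq RNA v2, a kit that does not mark strand, per the labels' protocols). The authors deposited 1 table of a signal per gene and library, counts divided by DESeq2 size factors; per the submitters' processing notes, which list DESeq2 2.11.40.6, featureCounts 2.0.1, HISAT2 2.1.0 and the builds mm10 and mm9 without saying which build served which step. All deposited values were whole multiples of 1 read of their library within 0.02 reads, so reads could be recovered for count tests. Of 27606 entries, 428 repeats were removed, leaving 27178 genes, 958 of them without a symbol.

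Genes that reached a value of 10 in 5 libraries or more were fitted with limma 3.58.1 (R 4.3.3; trend, robust) on log2(value + 1), with 4 group means over all 23 libraries. The pseudocount of 1 understates changes of low genes. p-values are two-sided and Benjamini-Hochberg adjusted over 16385 genes, with a threshold of 0.05, in 5 comparisons. For single members an exact permutation test was added; the smallest p it can give is 0.00794 for 5 against 5 and 0.000777 for 5 against 8. The alternatives were count tests on the recovered reads (DESeq2 1.42.0, edgeR 4.0.16), with other pseudocounts, filters, scalings and covariates and each library left out. The scripts were tested on simulated data. Named in each comparison were the 3 cell cycle and 2 neuroblast members of smallest p, and the gene of smallest p in each further list. Members and lists were chosen with earlier results of these data known. Without strand, reads of a gene and an antisense partner, as at Dlx1, cannot be told apart, and reads shared by Pcna or Tyms with near-identical copies are uncertain.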

Additional observations from a re-analysis of the deposited data

Results flagged for a closer look

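Within groups of 5 or 8 libraries, single values were compared with the 95% critical value of Dixon's test. Among 160 member and group pairs, 30 values stood apart from the nearest other library by more than that. For independent, normally distributed values chance gives about 1 in 20. The pairs share libraries, so the 30 are not set against that rate. GFP stress 13 was the high value for 23 members. Of the mitosis members these were Mki67 at 859, Top2a at 426, Cdk1 at 78.5, Ccnb1 at 23.5, Ccnb2 at 84.7, Ccna2 at 205, Bub1 at 56.1, Aurkb at 120.4, Birc5 at 116, Cenpf at 135, Cenpe at 122, Tpx2 at 161, Ube2c at 126 and Cdc20 at 99.96 normalized counts. Of the others they were Mcm2 at 264, Mcm3 at 233, Mcm5 at 315, Mcm6 at 298, Mcm7 at 480.4, Rrm2 at 299, Tk1 at 66.3, Hmgb2 at 201 and Cd24a at 464. ZBTB7A control 23 was high for Mki67 at 607 and Birc5 at 69.0. GFP stress 13 and ZBTB7A control 23 also held the granulocyte and red cell RNA and the high Col1a1 given above. The part of such RNA was not tested.

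ZBTB7A stress 25 was low for Birc5 at 18.7 and ZBTB7A stress 26 high for Nusap1 at 70.9. ZBTB7A control 6 was high for Igfbpl1 at 395, with the highest striatal marker level of its group, 1.99. Its choroid plexus and ependyma sum of 2913 and oligodendrocyte sum of 195092 were also the highest of its group. Its cortical excitatory neuron sum of 44425 was the lowest. The part of these tissues in the Igfbpl1 value was not tested. GFP stress 21 was high for Dlx1 at 926, and GFP control 11 low for Prc1 at 58.0.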

How the results depend on the processing

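No member passed the threshold under any alternative run, which left all 189 counts of members called at 0. Of 758 values of the members named for the smallest p in a comparison, 748 kept their direction and their side of the threshold. These members were picked in the main fit, and many alternative runs share most of its libraries. Agreement was therefore likely in advance, and the 748 are no measure of robustness. Over all 40 members directions were less stable, with 37 higher in ZBTB7A stress over GFP stress and 14 with the striatal covariate. With that covariate and without the 3 libraries most members were again higher, as given above. Of the 758, 10 reversed, and their cause was not tested. With the choroid plexus and ependyma level as a covariate, the log2 fold change was 0.19 for Dlx1 and 0.19 (0.1889) for Dlx2 in ZBTB7A control over GFP control, and -0.11 for E2f1, -0.0038 for Ccnd1, 0.56 for Igfbpl1 and 0.072 for Sox11 in GFP stress over GFP control. With the striatal level as a covariate the last comparison gave -0.02 (-0.01978) for Ccnd1 and 0.041 for Sox11. Without the 3 libraries and with the striatal level, Ccnd1 was -0.02 (-0.01508) there, and Dlx2 in ZBTB7A control over GFP control 0.0040.

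On recovered reads edgeR gave a median of 0.19 over the members for ZBTB7A stress over GFP stress, with 33 higher and 3 at an unadjusted p under 0.05, against 16.3% of all genes, and DESeq2 gave 4, against 17.3%. Both gave 2 for ZBTB7A control over GFP control (1.88% and 1.84% of all genes) and 1 for the interaction (7.85% and 8.49%). Both gave 0 for GFP stress over GFP control (12% and 12.7%) and for ZBTB7A stress over ZBTB7A control (1.69% and 1.76%). DESeq2 called 46 genes in ZBTB7A stress over GFP stress, 39 in GFP stress over GFP control, 1 in ZBTB7A stress over ZBTB7A control and 3 in the interaction, none a member. The choroid covariate turned the interaction median to -0.35 and that of GFP stress over GFP control to 0.44. Leaving out 1 library at a time, medians ran from 0.27 to 0.61 for ZBTB7A stress over GFP stress and from -0.04 to 0.28 for the interaction. Leaving out the 3 libraries, alone or with the striatal level, and the blood-borne immune level as a covariate were chosen after seeing the data. No paired analysis was possible because no title number is shared between groups. Low counts limit Bub1, Aurkb, Ccnb1, Ube2c and Tk1, whose lowest libraries held 1, 1, 2, 4 and 4 reads.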
